A study of Mus musculus with 6 samples.

Results

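The genes described here build desmosomes, the spot junctions between epithelial cells, and the cornified envelope, the cross-linked protein shell of squamous cells. They were taken by symbol from the deposited gene table: the small proline-rich (SPRR) family, the desmosomal cadherins and plaque proteins, envelope precursors, the late cornified envelope (Lce) family, transglutaminases, secreted keratinocyte proteins and the transcription factors and other regulators of these programmes. The rule found 76 of the 23420 genes in the table. The study compared uteri of Foxo1f/f control females with those of PgrCre/+ Foxo1f/f females, called Foxo1d/d below, to learn what the transcription factor FOXO1 does in the uterus around the time of implantation. All females were C57BL/6J, 8 weeks old and mated with vasectomized males, and uteri were taken at day 4.5 of pseudopregnancy. Both genotypes carry floxed Foxo1, and Foxo1d/d females also have Cre in the Pgr gene, which deletes Foxo1 in cells that express the progesterone receptor, in the ovary and pituitary as well as in the uterus. RNA was sequenced from 3 libraries per genotype, each a pool of RNA from 2 females.

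In the epidermis, desmosomal cadherins (desmogleins and desmocollins) reach across the gap between cells, and plakoglobin, plakophilins and desmoplakin tie them to keratin filaments. During cornification, transglutaminases cross-link involucrin, loricrin and SPRR proteins into the envelope. Simple epithelia such as the uterine lumen have desmosomes but no cornified envelope. SPRR2 genes are nonetheless known to be transcribed in mouse uterine epithelium under estrogen.

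The values are the authors' mean raw counts of each genotype, so no spread between pools can be given and no difference was tested. Control libraries averaged 26125014 counted reads and Foxo1d/d libraries 27257963. Folds compare mean counts after division by these totals. The 95% interval in parentheses after a fold is an exact binomial interval from the counts summed over the 3 libraries. Such intervals cover counting error only, since reads without molecular identifiers are not independent molecules, and say nothing of the variation between mice. A count of 0 over the 3 libraries of a genotype allows up to 3 counts, which is 0.0383 in control and 0.0367 in Foxo1d/d uteri in CPM, the count scaled to a common library total. Foxo1 itself averaged 3941 counts in control and 1456 in Foxo1d/d libraries, 2.82-fold lower (2.73 to 2.93). Its count covers the whole gene, including exons outside the deleted one.

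The SPRR genes Sprr2f, Sprr1a and Sprr2g were higher in Foxo1d/d uteri, as was the desmosomal cadherin gene Dsc2. Grhl1, Scel and Dsg3 were lower, while the desmosomal plaque genes and the transglutaminases differed by less than 1.5-fold wherever they had enough counts to compare. Of the 76 members, 26 averaged at least 10 counts over the genotypes, 20 had fewer counts and 30 had none. A difference is called here at 1.5-fold on the log2 scale, with a pseudocount of 1 added to both mean counts. By that rule 4 of the 26 members were higher (15.4%), beside 5.43% of all 15696 genes with as many counts, and 3 were lower (11.5%), beside 3.51%. Sprr1a passed the count filter through Foxo1d/d alone, so it had to differ to be included. At 2-fold the members called were as many, 4 and 3, beside 1.99% and 1.4% of all genes. The median log2 ratio of the 26 members was 0.14, and that of all 15696 genes was 0.02. The RNA came from whole uterus, so more cells of a type and more RNA per cell cannot be told apart.

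**Figure D1:**
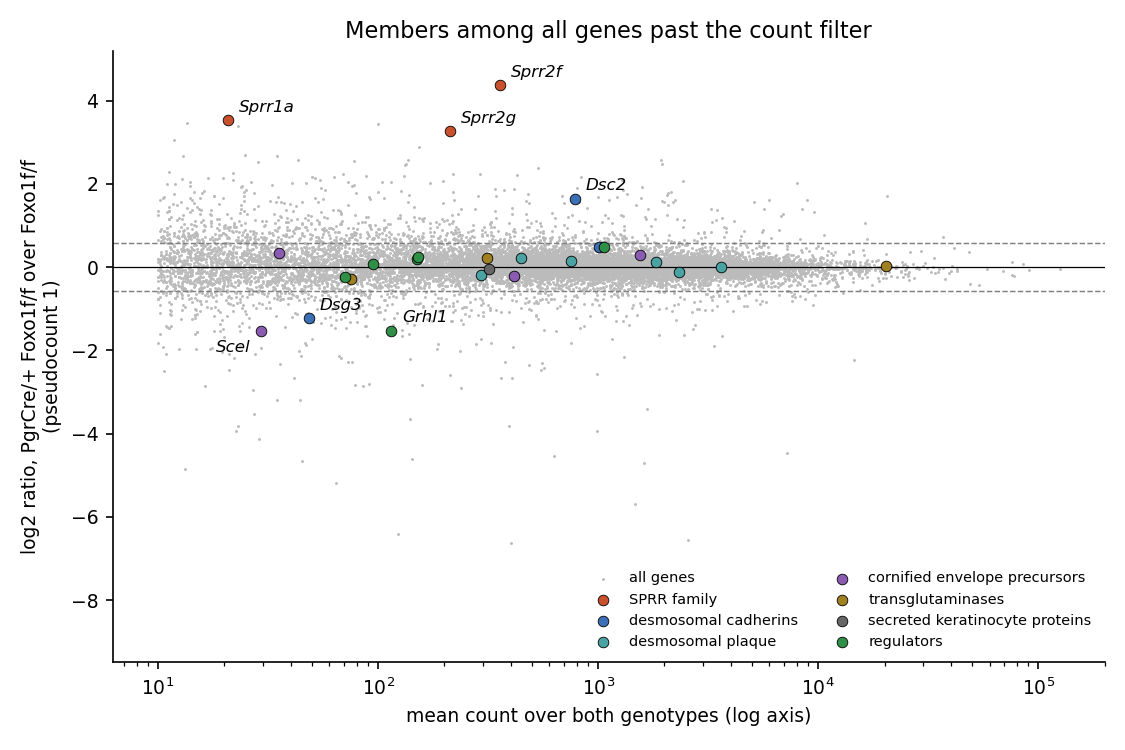
Log2 ratio of Foxo1d/d (PgrCre/+ Foxo1f/f) over Foxo1f/f mean counts against the mean count over both genotypes, for the 15696 genes averaging at least 10 counts (grey) and the 26 members among them (coloured by role); dashed lines mark 1.5-fold. Sprr2f has the highest ratio of all these genes, and most members lie between the dashed lines.

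SPRR proteins are short, proline-rich envelope proteins that act as cross-bridges between other envelope proteins. The 15 SPRR genes in the table had few counts in control uteri, 71.7 summed over the mean counts of the family. In Foxo1d/d the sum was 1132, 15.1-fold higher (13.2 to 17.5). Nearly all of it came from neighbouring members of the SPRR2 group. Sprr2f averaged 31 counts in control and 689 in Foxo1d/d libraries, 21.3-fold higher (17.3 to 26.5), which placed it first of the 15696 genes by log2 ratio. Sprr2g had mean counts of 37.7 and 388, 9.88-fold higher (8.14 to 12.1), and ranked 6. Sprr2g is annotated by RefSeq as a transcribed pseudogene. The interval of Sprr2f lies above that of Sprr2g, and the make-up of the SPRR2 counts differed accordingly. Sprr2f held 44.7% of the SPRR2 counts in Foxo1f/f (exact binomial interval 37.8% to 51.7%) and 63.0% in Foxo1d/d (61.4% to 64.7%).

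In CPM per kilobase of exon, the level of Sprr2f was 1.95 in control and 41.5 in Foxo1d/d uteri, and that of Sprr2g was 2.21 and 21.9. On the same scale Pkp4, the most abundant plaque gene, was at 23.7 and 23.6, so Sprr2f lay far below it in Foxo1f/f and above it in Foxo1d/d. Sprr1a, from a separate branch of the family, averaged 2.33 counts in control and 39.3 in Foxo1d/d libraries, 16.2-fold higher (7.60 to 41.1), and ranked 2 by log2 ratio. Its wide interval reflects only 7 counts over the 3 control libraries. Sprr2b and Sprr2e stayed below the count filter. Sprr2b had mean counts of 0.667 and 10.3, 14.9-fold higher (3.78 to 128). Sprr2e had no count in Foxo1f/f and a mean count of 3.67 in Foxo1d/d, and the exact binomial interval of its fold begins at 2.41. Set against 3 counts over the control group the fold is 3.51, a figure that leaves out the counting error in Foxo1d/d. Sprr2d and Sprr2i had mean counts of 1.00 and 0.333 in Foxo1d/d and none in Foxo1f/f. The other 8 members, Sprr1b, Sprr2a1, Sprr2a2, Sprr2h, Sprr2j-ps, Sprr2k, Sprr3 and Sprr4, had no count in either genotype.

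**Figure D2:**
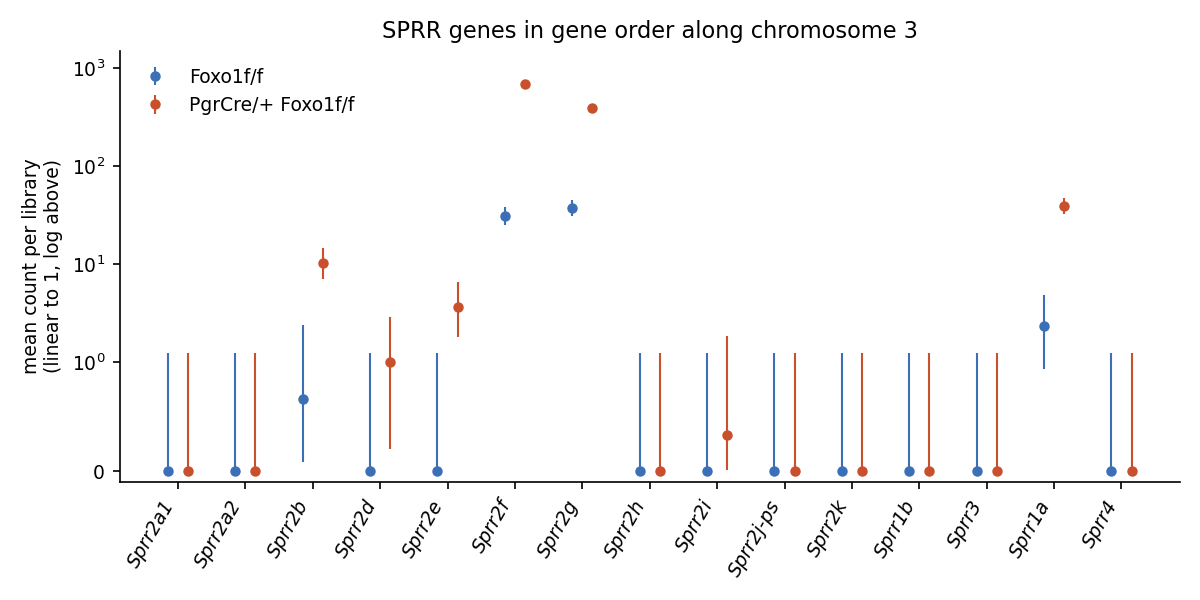
Mean count per library of the 15 SPRR genes in Foxo1f/f (blue) and PgrCre/+ Foxo1f/f (orange), in gene order; bars are exact 95% Poisson intervals of the summed counts and cover counting error only. The axis is linear up to 1 and logarithmic above. Sprr2f and Sprr2g stand far above the rest in PgrCre/+ Foxo1f/f, while 8 genes are at 0 in both genotypes.

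SPRR2 paralogs can share reads, so counts of single genes in this group are uncertain. The SPRR2 sum depends less on how shared reads were assigned. It was 69.3 in control and 1092 in Foxo1d/d uteri, 15.1-fold higher (13.1 to 17.5). Without Sprr2f it was 10.1-fold higher (8.33 to 12.3). To see how much sequence is shared, every stretch of 90 bases, the trimmed read length in the methods, was compared among the annotated transcripts of the SPRR genes. Of the 520 stretches of Sprr2f, 0 were identical to another SPRR transcript, and 15 (2.88%) lay within 2 mismatches of one. For Sprr2g and Sprr1a both numbers were 0. Sprr2b had 13 identical stretches of 695, shared with Sprr2a1, and Sprr2e had 16 of 558, shared with Sprr2i. Sprr2a1 and Sprr2a2 are different, with 93.2% and 93.6% of their stretches identical to another SPRR transcript. How reads that fit several genes were counted is not given in the sources used here. The 0 counts of Sprr2a1 and Sprr2a2 are therefore not read as a lack of transcripts. Aligned end to end, the Sprr2f transcript shared 73.0% of positions with that of Sprr2g and 80.4% with that of Sprr2i, the closest of the 8 SPRR genes aligned.

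The SPRR genes lie together in the epidermal differentiation complex, and their upstream sequences were compared because the members moved unequally within one cluster. The set of promoter windows used, 250 bases before to 50 after RefSeq (GRCm38.p6) starts, holds 53 of the 76 members. The windows were searched on both strands for the letters bound by AP-1 (TGACTCA), forkhead factors (TGTTTAC) and grainyhead factors (AACCGGTT). Shown 5′ to 3′ are the 250 bases before the start of Sprr2f, which was called higher, of Sprr2b and Sprr2e, which had more counts in Foxo1d/d but too few to call, of Sprr2h, which had no count, and of Sprr1a. Capitals mark the AP-1 letters, which read TGAGTCA here because each match is on the opposite strand. The windows are chr3:92364937-92365186 for Sprr2f, chr3:92316455-92316704 for Sprr2b, chr3:92351893-92352142 for Sprr2e and chr3:92385435-92385684 for Sprr2h, all on the plus strand, and chr3:92485882-92486131 for Sprr1a on the minus strand.
Sprr2f: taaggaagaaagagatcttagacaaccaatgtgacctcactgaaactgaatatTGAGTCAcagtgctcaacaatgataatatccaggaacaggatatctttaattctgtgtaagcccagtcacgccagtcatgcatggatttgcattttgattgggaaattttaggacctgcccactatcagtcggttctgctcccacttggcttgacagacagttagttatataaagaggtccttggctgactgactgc
Sprr2b: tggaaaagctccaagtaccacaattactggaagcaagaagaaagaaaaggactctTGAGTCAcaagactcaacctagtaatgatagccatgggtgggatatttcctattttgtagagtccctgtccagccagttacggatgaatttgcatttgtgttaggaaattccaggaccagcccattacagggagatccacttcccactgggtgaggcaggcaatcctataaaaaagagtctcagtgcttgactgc
Sprr2e: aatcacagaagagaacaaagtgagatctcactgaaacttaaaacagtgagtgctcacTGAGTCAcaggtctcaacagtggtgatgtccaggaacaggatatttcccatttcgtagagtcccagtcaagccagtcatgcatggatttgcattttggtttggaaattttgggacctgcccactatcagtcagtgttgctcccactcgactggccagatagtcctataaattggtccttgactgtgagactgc
Sprr2h: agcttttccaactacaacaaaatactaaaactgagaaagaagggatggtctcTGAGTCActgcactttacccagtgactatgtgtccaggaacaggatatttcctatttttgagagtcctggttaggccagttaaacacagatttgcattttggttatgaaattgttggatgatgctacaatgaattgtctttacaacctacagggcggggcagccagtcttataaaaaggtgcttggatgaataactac
Sprr1a: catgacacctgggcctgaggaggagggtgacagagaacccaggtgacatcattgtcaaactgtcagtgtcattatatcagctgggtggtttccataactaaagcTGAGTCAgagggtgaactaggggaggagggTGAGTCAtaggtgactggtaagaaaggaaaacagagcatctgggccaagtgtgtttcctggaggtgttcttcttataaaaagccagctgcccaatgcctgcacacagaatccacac

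In Sprr2f the AP-1 letters begin 197 bases before the start. They begin 193 to 198 bases before it in each of Sprr2b, Sprr2d, Sprr2e, Sprr2h, Sprr2i and Sprr2k, so 7 of the 9 SPRR2 windows hold them, and Sprr2k has them again on its other strand. These promoters are related copies: over the 250 bases, the other 6 matched Sprr2f at 60.8% to 74.4% of aligned positions. Sprr2a1 and Sprr2a2, without the letters, matched it at 49.4%. The longest annotated transcripts of Sprr2a1 and Sprr2a2 have 3003 and 2867 bases, beside 609 for Sprr2f. Whether their windows lie at the matching position was not tested. From other branches of the family, Sprr1b, Sprr3 and Sprr4 matched Sprr2f at 49.4% too, and Sprr1a at 49.3%. Sprr1a holds the AP-1 letters at 2 places, beginning 146 and 116 bases before its start. The letters were present both in genes with many counts in Foxo1d/d and in Sprr2h and Sprr2k, which had none. Over all members, 16 of 59 windows (27.1%) held the AP-1 letters, beside 5.2% of all 32851 windows in the set. Outside the SPRR family, 8 of 46 windows (17.4%), of 6 genes, held them, and 0 of the 19 Lce windows did. The forkhead letters were in 0 of the 59 windows, beside 3.65% of all, and the grainyhead letters in 0, beside 0.146%. A match is a run of letters, not a measured binding site, and a window without one says nothing about the factor. Sprr2g, the desmosomal cadherins, Evpl, Grhl2, Ovol1, Perp, Pkp1, Pkp2, Pkp3, Ppl, Tgm2, Trp63, Csta, Lce1f and Sprr2j-ps had no window in the set. They were therefore not searched.

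The complex on chromosome 3 holds 38 of the 76 members. Between S100a1 and S100a10, the S100 genes at its ends, RefSeq lists 101 genes, of which 68 are in the table. The span was chosen after the SPRR values were seen. Of the 38 members there, 28 had no count in either genotype, and only Lor, Sprr1a, Sprr2f and Sprr2g passed the count filter. Lor, which encodes loricrin, the main envelope protein of the epidermis, had mean counts of 30.3 and 40.3, 1.27-fold higher (0.963 to 1.69). Ivl, which encodes involucrin, had 0.333 and 4.0, 11.5-fold higher with an interval from 1.70 to 492 that rests on a single control count. Flg2 and 19 of the 20 Lce genes had no count, and Lce1a1 had a mean count of 1.00 in Foxo1d/d. Among the 30 other genes of the span, 11 passed the filter. Of these S100a14 (mean counts 8.00 and 18.3) and S100a9 (12.3 and 30.7) were called higher and S100a7a (229 and 133) lower. S100a14 passed the filter through Foxo1d/d alone. Summed over those 30 genes the counts were 0.965-fold (0.953 to 0.976) those of Foxo1f/f, while the sum over the 38 members was 11-fold higher (9.81 to 12.4). A few abundant genes set each sum. The first came mostly from S100 genes such as S100a6 (mean counts 5561 and 5161) and S100a10 (4673 and 5229). The second came mostly from Sprr2f and Sprr2g.

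**Figure D3:**
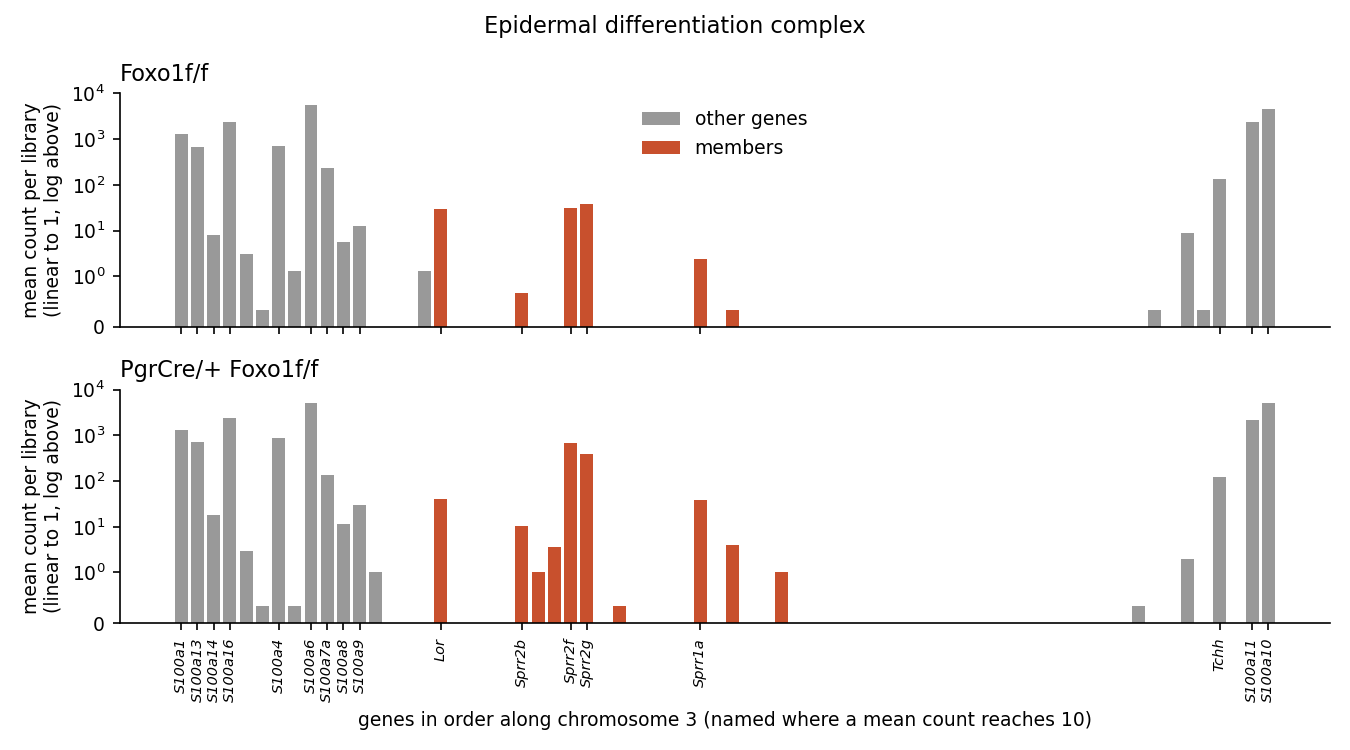
Mean count per library of the 68 listed genes between S100a1 and S100a10, in order along chromosome 3, in Foxo1f/f (top) and PgrCre/+ Foxo1f/f (bottom); members are orange and other genes grey, and the axis is linear up to 1 and logarithmic above. The bars of Sprr2f, Sprr2g and Sprr1a are higher in the bottom panel, and many genes between have no bar in either.

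Desmosomal cadherins, encoded by 9 genes in one cluster on chromosome 18, were not all higher or all lower. Dsc2, the desmocollin of simple as well as stratified epithelia, averaged 368 counts in control and 1201 in Foxo1d/d libraries, 3.13-fold higher (2.93 to 3.35). Its partner in simple epithelia, Dsg2, had mean counts of 821 and 1191, 1.39-fold higher (1.32 to 1.46) and short of the call. In CPM per kilobase, Dsg2 was above Dsc2 in control uteri, at 3.80 against 2.67, and below it in Foxo1d/d, at 5.28 against 8.35. Dsg3, a desmoglein of the basal layers of stratified epithelia, went the other way, with mean counts of 67.7 and 29.7, 2.38-fold lower (1.85 to 3.09). Dsc3, the desmocollin usually found in those same layers, had mean counts of only 1.00 and 9.33, 8.95-fold higher (2.76 to 46). Of the epidermal cadherins, Dsg1a and Dsg1b had no count, and Dsc1, Dsg1c and Dsg4 had mean counts of at most 3.33 in either genotype.

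The desmosomal plaque lay within 1.5-fold throughout where it could be compared. Pkp4, the most abundant plaque gene per kilobase, encodes an armadillo protein of desmosomes and adherens junctions. Its mean counts were 3530 and 3664, a fold of 0.995 (0.969 to 1.02). Jup, which encodes plakoglobin, had 2366 and 2293, a fold of 0.929 (0.898 to 0.960). Dsp, which encodes desmoplakin, the link to keratin filaments, had 1706 and 1944, a fold of 1.09 (1.05 to 1.13). Perp, which encodes a membrane protein of desmosomes and was grouped here with the plaque genes, had a log2 ratio of 0.15. Pkp2 and Pkp3 had log2 ratios of -0.18 and 0.21. Summed over the 7 genes of this group, Perp included, the fold was 1.01 (0.993 to 1.03), beside 1.85 (1.78 to 1.93) over the 9 cadherin genes. Pkp1, the plakophilin of stratified epithelia, was the plaque gene with too few counts to compare. It had 1 count over the 3 control libraries and a mean count of 12 in Foxo1d/d, with an interval of the fold from 5.81 to 1400.

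**Figure D4:**
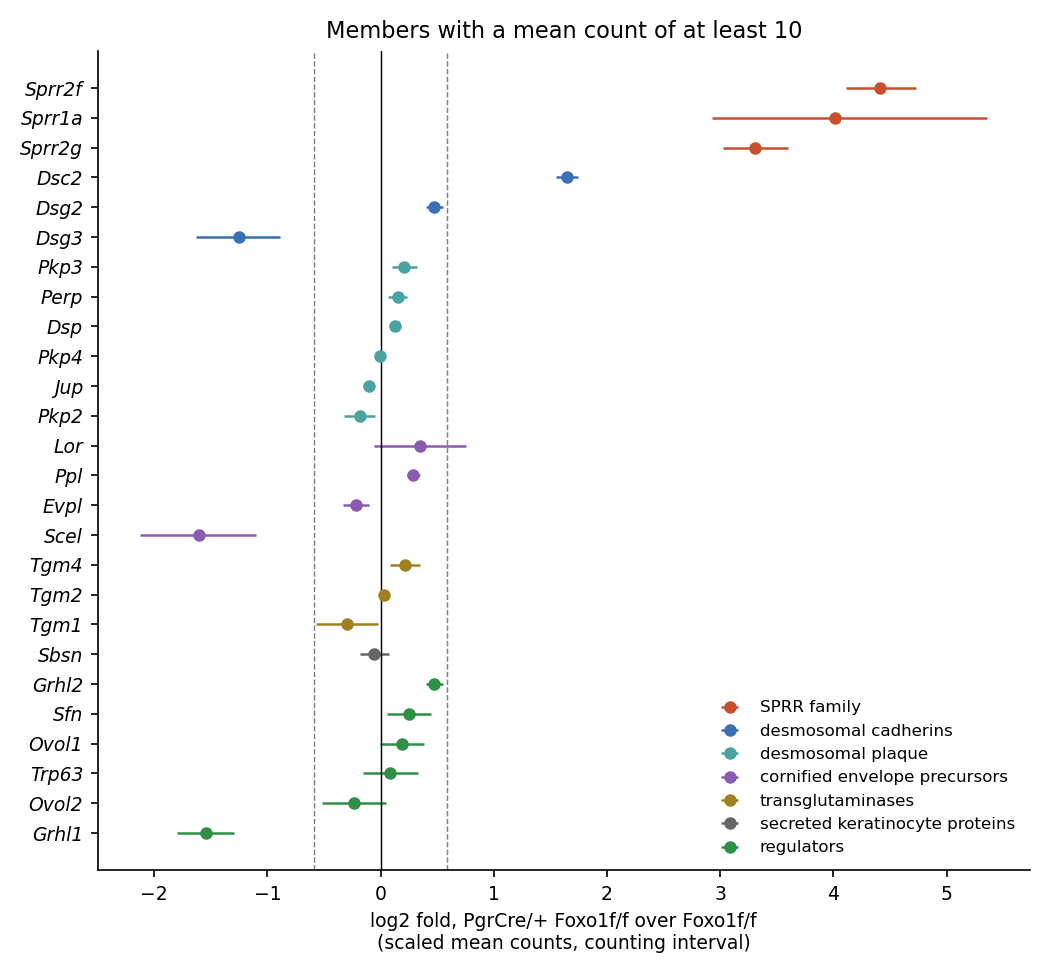
Log2 fold of PgrCre/+ Foxo1f/f over Foxo1f/f scaled mean counts for the 26 members averaging at least 10 counts, grouped by role; bars are 95% exact binomial intervals for counting error only and dashed lines mark 1.5-fold. Sprr2f, Sprr1a, Sprr2g and Dsc2 lie to the right of the lines, Dsg3, Scel and Grhl1 to the left, and the plaque genes lie near 0.

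Among the 8 envelope precursors outside the SPRR and Lce families, Ppl was the most abundant per kilobase. It encodes periplakin, which links the envelope to desmosomes and keratin filaments, and had mean counts of 1364 and 1739, 1.22-fold higher (1.17 to 1.27). Evpl, which encodes its partner envoplakin, had 436 and 392, a fold of 0.862 (0.796 to 0.933). Scel, which encodes the envelope precursor sciellin, was the only precursor called, with mean counts of 43.7 and 15, 3.04-fold lower (2.15 to 4.36). Cnfn and Csta had no more than 1 count over the 3 libraries of either genotype.

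Transglutaminases cross-link the envelope, and none of the 7 was called. Tgm2, the widely expressed tissue transglutaminase, was by far the most abundant member per kilobase, with levels of 164 and 167 CPM per kilobase and a fold of 1.02 (1.01 to 1.03). Tgm1, the membrane-bound enzyme of keratinocytes, had mean counts of 81.3 and 69.0, a fold of 0.813 (0.672 to 0.983). Tgm4 had 282 and 342, a fold of 1.16 (1.06 to 1.27). Tgm3, the other enzyme of epidermal envelope assembly, Tgm5, Tgm6 and Tgm7 had mean counts of at most 6.33. Of the secreted keratinocyte proteins, which are encoded side by side on chromosome 7, Sbsn had mean counts of 320.0 and 321, a fold of 0.962 (0.879 to 1.05). Its neighbours Dmkn and Krtdap had mean counts of at most 8.67, and their intervals included 1.

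The regulators differed within one family. Grhl1, a grainyhead-like factor known to control desmosomal cadherin genes in skin, had mean counts of 169 and 60.7, 2.91-fold lower (2.45 to 3.47). Grhl2, its relative in simple epithelia and the most abundant regulator per kilobase, had 869 and 1260, 1.39-fold higher (1.32 to 1.46). Grhl3 had mean counts of at most 1.33. Trp63, which encodes the master regulator of stratified epithelia, had levels of 0.412 and 0.437 CPM per kilobase, a fold of 1.06 (0.897 to 1.26). Ovol1 and Ovol2, zinc-finger regulators of epithelial differentiation, had folds of 1.14 (0.996 to 1.30) and 0.848 (0.698 to 1.03). Sfn, which encodes stratifin of differentiating keratinocytes, had a fold of 1.19 (1.04 to 1.36). With counts scaled to the summed simple epithelium markers in place of the totals, an alternative chosen after seeing the data, the log2 ratios of Dsp, Ovol1, Perp, Pkp3, Tgm2, Tgm4 and Trp63 turned from above to below 0.

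Genes of related programmes were read from other lists. Of 46 other cornification genes, 21 passed the count filter, with 5 higher, 2 lower and a median log2 ratio of 0.23. Elf5, an ETS factor of epithelial cells, had mean counts of 22.7 and 116, 4.90-fold higher (3.77 to 6.46). Gsdma, a gasdermin of epidermis, had 14 and 42.7, 2.92-fold higher (2.05 to 4.24). Zfp750, a driver of terminal epidermal differentiation, had 27.7 and 6.67, 4.33-fold lower (2.63 to 7.45). It passed the count filter through Foxo1f/f alone. Cers3, the ceramide synthase of the skin barrier, had 72.7 and 20.7, 3.67-fold lower (2.76 to 4.95). The most abundant gene of the list, S100a10, had 4673 and 5229, a fold of 1.07 (1.05 to 1.10). Barrier genes were thus called on either side.

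Of the 14 genes listed as keratins of stratified epithelium, 9 passed the filter, with 5 higher, 0 lower and a median log2 ratio of 0.83. Among the 5, Krt2 passed it through Foxo1d/d alone, so it had to differ to be included. Krt15, a keratin of basal cells, was 11.5-fold higher (8.49 to 15.9). Krt5 and Krt14, the basal keratin pair, had mean counts of 37.0 and 236, and of 15 and 66.3, which is 6.12-fold (5.01 to 7.55) and 4.24-fold (3.05 to 6.00) higher. Krt17 was 3.04-fold higher (2.34 to 3.98). Krt23, the most abundant gene of the list, had 1755 and 1613, a fold of 0.881 (0.847 to 0.916). It held 67.2 of the list's 85.4 CPM in control and 59.2 of 99.0 in Foxo1d/d uteri. Whether its counts came from stratified cells was not tested.

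Adherens and tight junction genes differed little. Of the 21 in the table, 1 was higher and 0 lower, with a median log2 ratio of -0.04. That gene was Tjp3, which encodes a tight junction scaffold, at 1.67-fold (1.56 to 1.80). It was short of the call when scaled to the summed simple epithelium markers, with a log2 ratio of 0.51 in place of 0.74. Scaled so, Tjp1 and Cldn10, with log2 ratios of -0.44 and -0.49 before, passed 1.5-fold lower. Ctnnb1, the most abundant, had a fold of 1.01 (1.00 to 1.02). Among 10 hemidesmosome genes, which anchor epithelia to the basement membrane, Lama3 was 3.10-fold lower (2.97 to 3.23) and Lamb3 1.85-fold higher (1.65 to 2.08), and the other 8 were within 1.5-fold. Plec, the most abundant by the mean over both genotypes, had a fold of 0.912 (0.899 to 0.925).

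Estrogen-responsive genes differed in both directions. Of 23 such genes, 9 were higher and 3 lower, with a median log2 ratio of 0.28. Clca3 was 7.05-fold higher (4.63 to 11.2), Padi2, a peptidylarginine deiminase, 3.44-fold higher (3.29 to 3.59) and Cbr2 3.33-fold higher (3.19 to 3.47). Clca3, with mean counts of 8.33 and 61.3, passed the count filter through Foxo1d/d alone, so it had to differ to be included. Gjb2, which encodes a gap junction connexin, was 4.89-fold lower (4.39 to 5.46). Igf1, the most abundant by the mean over both genotypes, had 19765 and 15326, a fold of 0.743 (0.734 to 0.752). Scaling to the summed simple epithelium markers moved the log2 ratios by -0.24. Igf1 then passed 1.5-fold lower, at -0.66. Greb1, Wnt7a and Lcn2, with log2 ratios of 0.62, 0.66 and 0.62 before, were then no longer called higher. The part of the estrogen-responsive genes in the SPRR difference was not tested.

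Markers of squamous epithelium were followed beside the SPRR genes. The methods say that the cervix was discarded when horns were taken for RNA, in a passage on operated mice. Of 10 markers of cervical and vaginal squamous epithelium, 5 passed the filter, of which 2 were higher and 1 lower. Their summed level was 8.79 CPM in control and 16.9 in Foxo1d/d uteri. Trp63 was the most abundant in control and Krt5 in Foxo1d/d. Sprr3 was at 0 in both genotypes, Krt6a had mean counts of at most 1.33, and Krt13 and Krt4, the keratins of its upper layers, had mean counts of at most 7.0. The 3 genes called, Krt5, Krt14 and Dsg3, did not go one way. Of 10 markers of differentiated epidermis, 9 were in the table and 4 passed the filter. Their sum was 11 and 15.5 CPM, and most of it was Krt10, with mean counts of 222 and 347. Krt2 was called higher, from 8.00 to 15.7, and passed the filter through Foxo1d/d alone. Hrnr, below the filter, had mean counts of 8.67 and 2.00, 4.52-fold lower (1.82 to 13.4). Krt77 and Flg2 had no count. The part of these cells in the SPRR difference was not tested.

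Markers of simple uterine epithelium, the lining in which desmosomes would be found, had a summed level of 724 CPM in control and 852 in Foxo1d/d uteri, 1.18-fold higher (1.16 to 1.19). Of the 10, 2 were called higher, Krt19 at 2.33-fold (2.22 to 2.45) and Elf3 at 1.81-fold (1.71 to 1.92). Cdh1, the most abundant, had a fold of 1.08 (1.05 to 1.10). Scaled to this list, an alternative chosen after seeing the data, the log2 ratio of the SPRR2 sum was 3.66 in place of 3.90 and that of Dsc2 was 1.41 in place of 1.64. Gland markers had the lowest median log2 ratio of the lists, -2.88. Of 6 in the table, 4 were lower and 1 higher, and their sum was 886 and 108 CPM. Prss28 was 95.7-fold lower (82.1 to 112), Spink3 26.1-fold lower (23.5 to 29.1), Prss29, the most abundant in control, 22.0-fold lower (21.0 to 23.0) and Ttr 2.51-fold lower (2.05 to 3.07). Lif, the most abundant in Foxo1d/d, was 1.99-fold higher (1.90 to 2.09), and Foxa2, a transcription factor of gland cells, had a fold of 1.03 (0.934 to 1.13). Prss28 and Prss29 are paralogs and can share reads. In the paper, gland number and Foxa2 did not differ between the genotypes on an earlier day of pregnancy. How gland content bears on the members was not tested.

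The other compartments differed less. Of 8 smooth muscle, 10 stroma and 7 endothelium markers, 0 were called. Their sums were 7224 and 5829, 10407 and 10499, and 1641 and 1382 CPM in the control and Foxo1d/d genotypes. Their most abundant genes Myh11, Col1a2 and Pecam1 had folds of 0.742 (0.737 to 0.747), 1.06 (1.05 to 1.06) and 0.856 (0.842 to 0.870). When scaled to the summed simple epithelium markers, the muscle genes Myh11, Actg2 and Lmod1 and the endothelial gene Vwf passed 1.5-fold lower. Immune markers summed to 296 and 363 CPM, and 2 of 8 past the filter were higher, S100a9 at 2.38-fold (1.61 to 3.59) and Cd3e at 2.14-fold (1.77 to 2.61). Ptprc, the most abundant, had a fold of 1.32 (1.28 to 1.36). Mesothelium markers summed to 239 and 262, with Wt1 the most abundant at 0.848-fold (0.826 to 0.870) and only Krt19, which epithelium shares, called. Oviduct and ciliated cell markers summed to 116 and 132, mostly Ovgp1 at 1.13-fold (1.09 to 1.16), and Foxj1 was called higher at 1.92-fold (1.28 to 2.91). The part of these cell types in the members' values was not tested.

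**Figure D5:**
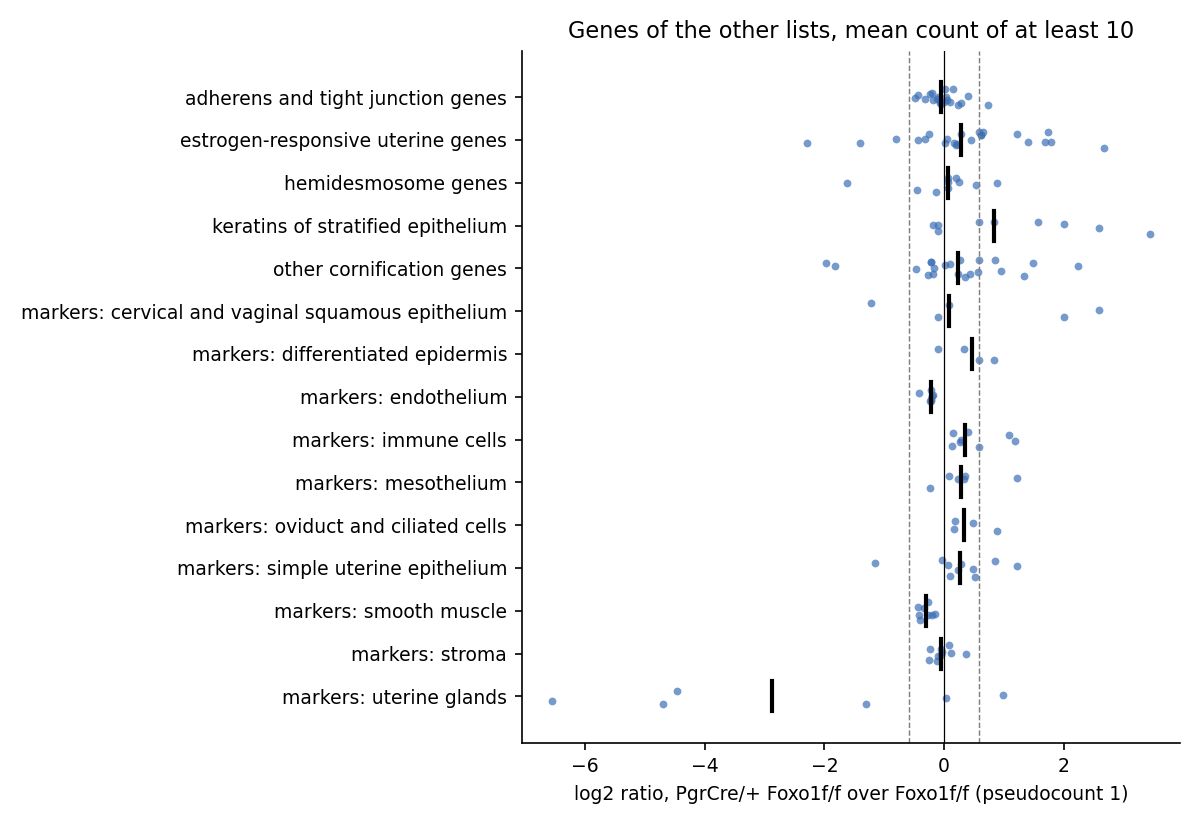
Log2 ratio of PgrCre/+ Foxo1f/f over Foxo1f/f for those genes of each other list that average at least 10 counts; points are genes, black bars list medians and dashed lines 1.5-fold. The stratified keratins reach highest, with a median of 0.83, and the gland markers lowest, while stroma, muscle and endothelium lie within the lines.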

How the data were processed

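Whole-uterus RNA of 3 libraries per genotype was sequenced as paired-end poly(A) reads. According to the study's methods, the authors trimmed the 5′ ends, mapped reads to mm10 with STAR and RefSeq genes, removed duplicates with picard and counted reads with HTSeq, while the submitters' processing notes list mm9. Versions are not given in the sources used here. The table has no coordinates, and those printed are of RefSeq GRCm38.p6. The authors deposited 1 table with, for each gene, the raw count averaged over the libraries of a genotype. Averages multiplied by 3 were taken as whole summed counts, within the rounding of the averages. The other columns of the table hold the authors' own edgeR comparison (fold change, p-value, FDR and average log2 CPM) and were not used. Other columns of single samples numbered 0.

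Tests planned on single libraries were not possible with genotype means. Mean counts were divided by the genotype total, and log2 ratios used a pseudocount of 1. Members averaging at least 10 counts over the genotypes were compared at 1.5-fold. Intervals at 95% are exact binomial intervals (scipy 1.17.1) from the summed counts, 78375043 and 81773890. A fold against 0 counts was computed against 3 counts over the group. Exon lengths are unions of GENCODE vM21 exons, found for 75 of the 76 members. The calculations were tested on simulated data.

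Named are SPRR genes averaging at least 3 counts in either genotype, members called higher or lower, the most abundant member per kilobase of each role, Foxo1, and from each other list up to 4 of the called genes and the most abundant gene. Members and genes named beyond this rule were chosen after their values were seen. Members and lists were chosen with earlier results of these data known. Alternatives were a pseudocount of 0.1, centring on the median gene, upper-quartile scaling, scaling to epithelial markers, other filters and folds, and SPRR2 genes summed.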

Additional observations from a re-analysis of the deposited data

How the results depend on the processing

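The members called higher numbered 12 with a mean count of at least 1 as the filter, in place of 4, because genes with few counts then entered. The members called lower numbered 1 with a filter of 50, in place of 3, because Scel and Dsg3 then fell below it. Under the other alternatives tried, the higher count was 3 or 4 and the lower count 3. With the SPRR2 genes summed and counted as 1 gene, only the higher count was computed. The log2 ratio of the SPRR2 sum, 3.90, was 3.30 without Sprr2f and 3.66 when scaled to the simple epithelium markers, an alternative chosen after seeing the data. It lay between 3.88 and 3.91 under the other 3. Scaling to the epithelium markers moved the median log2 ratio of all genes by -0.24, so 467 genes were higher and 1256 lower, beside 853 and 551. Scaled so, 7 of the 26 members past the filter changed sign, and under the pseudocount of 0.1, centring and upper-quartile scaling 0 did. Of 89 genes followed singly, 89, 83 and 89 stayed within their counting interval under those 3 settings and 46 under the epithelial scaling. Among these genes, under the epithelial scaling Tjp3 was no longer called (log2 ratio 0.51), and Igf1 (-0.66) and Myh11 (-0.67) passed 1.5-fold lower. Further genes of the lists changed call under it. Greb1, Wnt7a and Lcn2 were no longer called higher, and Actg2, Lmod1, Vwf, Dst, Tjp1, Cldn10 and Asprv1 passed 1.5-fold lower.

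No paired analysis was possible because the table holds genotype means, so that leaving out a library and a replicate block were not run either. Depth limits the 20 members with few counts: 5 of them, Sprr2b, Sprr2e, Ivl, Dsc3 and Pkp1, had intervals above 1, and 15 had intervals that include 1.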
